A study of Mus musculus with 16 samples.

Results

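The effect of deleting the transcription factors Erg and Fli1 was compared between endothelial cells of the heart and of the liver. Of the 16 RNA-seq libraries of the series, 10 were used, the ones from liver and heart. Heart gave 2 libraries of mice with an Erg and Fli1 double knockout (KO) and 2 wild-type control libraries, and liver gave 3 KO and 3 control libraries. All mice received tamoxifen, which induces the deletion, and cells were isolated 10 days later. Cells were sorted as live, negative for CD45, and positive for CD31 and for VE-cadherin, the last stained by antibody injected into the living animal. The sources used here do not give the driver of the deletion, the strain, the sex or the age in weeks. Nothing in the labels says that libraries of a group came from separate animals, so p-values measure the spread between libraries, which may be technical where they did not.

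Erg and Fli1 are members of the ETS family, DNA-binding proteins that recognise a GGAA core and keep genes of endothelial identity active. Endothelial cells differ by organ. The sinusoidal cells of the liver are fenestrated and clear waste from blood through scavenger receptors, and they secrete signals such as Bmp2 to hepatocytes. The capillary cells of the heart form a continuous lining and carry fatty acids to the muscle. The question was which genes answered the deletion differently in these linings.

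For each gene the log2 change between KO and control was estimated in each tissue, and the heart change minus the liver change is called the difference. A positive difference means that KO over control was higher in heart than in liver. It can come from a rise in heart, a fall in liver, or both, so both tissue values are given beside it. A gene was called when its p, from edgeR's quasi-likelihood test with Benjamini-Hochberg adjustment over all 18386 genes tested, was under 0.05. Levels are in CPM, counts scaled to a common library size with TMM factors, and errors of log2 changes are standard errors. A gene was near zero in a tissue when neither the KO nor the control mean reached 1 CPM there, and such genes are described apart. Counts and medians of lists include them unless stated.

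Promoters of the first genes on each side by size of the difference are shown because the deleted factors bind ETS motifs. Sftpc on the positive side and Cacna1h on the negative side rank among them and are named only. The promoters are RefSeq sequences of build GRCm38.p6, from 250 bases before to 50 bases after the start of the gene, on the strand of the gene. Capitals mark each CCGGAA or GGAAGT on either strand, found by a search for these letters. The first pair, Cd209b at chr8:3926792-3927091 (minus strand) and Hmga2 at chr10:120476420-120476719 (minus strand), had positive differences. The second pair, Ppp1r14c at chr10:3365900-3366199 (plus strand) and Vwa3a at chr7:120739307-120739606 (plus strand), had negative differences.
Cd209b: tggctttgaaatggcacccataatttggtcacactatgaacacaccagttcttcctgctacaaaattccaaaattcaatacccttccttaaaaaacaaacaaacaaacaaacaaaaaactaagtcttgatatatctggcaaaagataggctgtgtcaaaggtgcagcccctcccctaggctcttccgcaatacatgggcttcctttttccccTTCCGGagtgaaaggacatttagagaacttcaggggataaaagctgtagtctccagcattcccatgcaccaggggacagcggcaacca
Hmga2: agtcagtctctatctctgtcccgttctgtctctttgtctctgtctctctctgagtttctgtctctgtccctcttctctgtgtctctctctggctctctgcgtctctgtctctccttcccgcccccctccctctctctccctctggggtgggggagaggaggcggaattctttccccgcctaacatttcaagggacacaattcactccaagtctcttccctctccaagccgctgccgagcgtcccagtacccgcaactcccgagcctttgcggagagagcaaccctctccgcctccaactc
Ppp1r14c: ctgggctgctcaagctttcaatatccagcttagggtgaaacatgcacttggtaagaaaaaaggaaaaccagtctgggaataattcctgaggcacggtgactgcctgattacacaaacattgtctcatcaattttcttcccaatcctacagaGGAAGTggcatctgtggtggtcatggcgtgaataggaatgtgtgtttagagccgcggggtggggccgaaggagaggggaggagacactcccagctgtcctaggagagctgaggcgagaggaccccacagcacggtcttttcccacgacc
Vwa3a: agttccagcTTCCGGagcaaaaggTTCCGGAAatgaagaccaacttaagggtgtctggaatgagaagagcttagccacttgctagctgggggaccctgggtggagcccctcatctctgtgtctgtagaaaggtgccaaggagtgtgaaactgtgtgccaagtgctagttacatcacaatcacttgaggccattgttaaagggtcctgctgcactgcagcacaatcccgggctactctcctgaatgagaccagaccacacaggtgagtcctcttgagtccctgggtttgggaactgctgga
The Cd209b window held 1 CCGGAA, the Ppp1r14c window 1 GGAAGT and the Vwa3a window 3 CCGGAA, of which a pair overlap on opposite strands. Neither motif was in the Hmga2 window. Among 32851 RefSeq promoters of this length, 14.9% held CCGGAA, 23.8% held GGAAGT and 32.1% held either, so a match is common and is a description only.

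Total counts ran from 30226340 to 41449054 per library. Libraries of 1 group correlated at 0.960 to 0.985 in log2 CPM, and liver KO 3 had the lowest values, 0.965 with liver KO 1 and 0.960 with liver KO 2. By Ddx3y above Xist, 1 of 2 heart KO, 0 of 2 heart control, 1 of 3 liver KO and 1 of 3 liver control libraries were male. The libraries of heart KO, of liver KO and of liver control therefore did not all come from 1 animal per group. For heart controls this cannot be told. Of 9 genes of the Y chromosome or of Xist and Tsix that were tested, 0 were called in the difference by edgeR (1 at an unadjusted p under 0.05, 0 by DESeq2). Markers of other cell types moved in both tissues, and their levels stand beside the matrix genes and after the leukocyte genes. Of 18 macrophage markers 11 rose in heart KO libraries, with a summed level of 300.1 to 552 CPM, against 31.1 to 82.7 CPM in heart controls, where 3 were at 0. In liver KO libraries the same sum was 2357 to 2839 CPM, against 3793 to 4605 CPM in liver controls. Most of that liver sum was Mrc1, which is also on the liver sinusoidal list. A list of lung epithelial genes, drawn up after Sftpc was seen among the leading genes, summed to 115 to 187 CPM in heart KO libraries, against 5.67 to 7.57 CPM in heart controls. The part of either signal in the results below was not tested.

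The levels of the targeted genes were a check of the labels. Erg had 158 and 156 CPM in heart KO libraries and 203 and 227 CPM in heart controls, against 162, 135 and 130.5 CPM in liver KO libraries and 354, 329.8 and 363 CPM in liver controls. For Erg the log2 change was -0.45 ± 0.14 in heart (adjusted p = 0.049) and -1.29 ± 0.11 in liver (adjusted p = 0.00015), a difference of 0.84 (95% interval 0.44 to 1.23, adjusted p = 0.024). Erg was lower in every KO library than in every control of its tissue, and the fall was smaller in heart. Without any 1 of 7 libraries the call on this difference was lost, with an adjusted p of up to 0.11. Fli1 changed by 0.03 on the log2 scale in heart and by 0.40 in liver, neither past the threshold, and counts over the whole gene cannot show a deleted exon. Kcnj1, which lies beside Fli1 and encodes an inward rectifier potassium channel, had 45.8 and 48.8 CPM in heart KO libraries and 0.0579 and 0.22 CPM in heart controls. In liver it had 21.5, 26 and 31 CPM in KO libraries, against 0.0258, 0.0333 and 0.0297 CPM in controls, where the controls held 3 counts together. Its ratio of KO over control in liver was 892 (95% counting interval 305 to 4330). All 5 KO libraries were therefore told apart from all 5 controls by this gene, in both tissues.

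Between KO and control libraries 3237 genes were called in heart (17.6% of those tested, 1767 or 9.61% up and 1470 or 8% down). In liver 3404 were called (18.5%, 1725 or 9.38% up and 1679 or 9.13% down). Genes of other cell types are among them, and their part was not tested. The difference between tissues was called for 1308 genes, 7.11% of those tested. It was positive for 736 genes, or 4%, and negative for 572, or 3.11%. Among the 12785 genes measured in both tissues, 1169 were called, 650 positive and 519 negative, and 871 of these differed by at least 2-fold. Their median absolute difference was 1.48 on the log2 scale. A block for the library number within genotype treats a number as 1 animal giving both tissues. With it 1998 genes were called, 1260 positive and 738 negative of 18386 tested, and 1830 of these were measured in both tissues. Liver KO 3 and liver control 2 have no heart library of their number and genotype. In this fit they therefore add nothing to the estimated changes. Without liver KO 3, and with no block, 1622 genes were called. Without heart control 1 the count was 448, and without heart control 3 it was 549. It was 675 without heart KO 1, 650 without heart KO 2, and 836, 805 and 673 without liver control 1, 2 or 3.

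The largest class of positive differences was a rise in heart with no call in liver, with 362 genes. A further 211 fell in liver with no call in heart, and 95 rose in heart and fell in liver. Among negative differences, 226 genes rose in liver with no call in heart, 221 fell in heart with no call in liver, and 64 fell in heart and rose in liver. A call in 1 tissue alone did not mark a difference: of 2022 genes called in heart and not in liver, 583 had a called difference, and of 2189 called in liver and not in heart, 437 did. Of the 1215 genes called in both tissues, 1056 changed in the same direction, and 87 of those still differed in size.

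**Figure D1:**
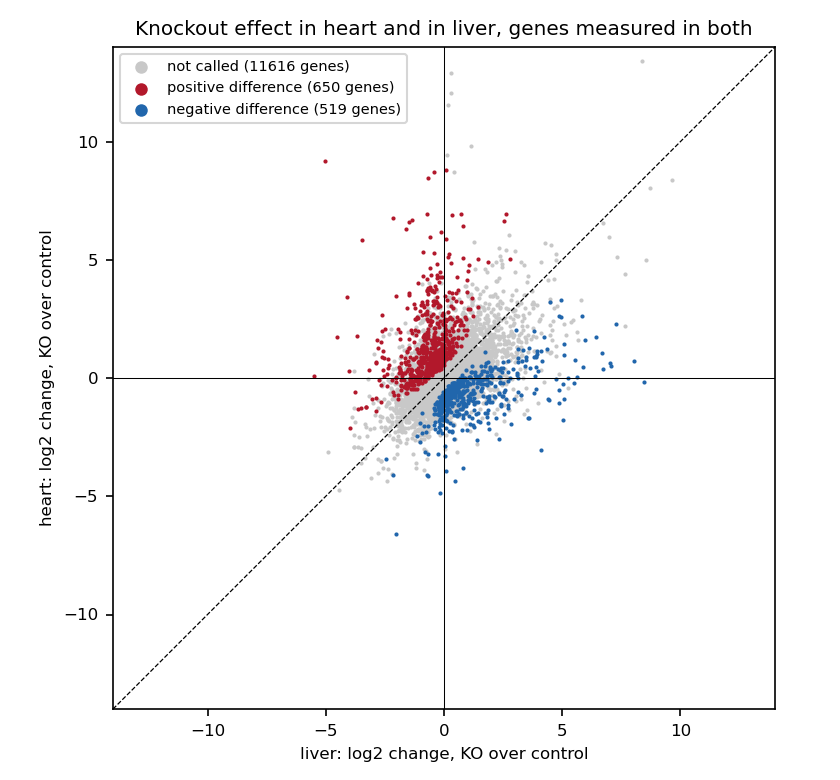
Log2 change of KO over control in heart (vertical axis) against liver (horizontal axis) for the 12785 genes measured in both tissues, each point a gene and the dashed line equal change. The 650 red genes with a positive difference lie above the dashed line and the 519 blue genes with a negative one below it.

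Genes of liver sinusoidal identity had the most one-sided differences of the endothelial lists. Counts of this and later lists stand beside 4% positive and 3.11% negative of all genes tested. With the block within genotype, called the block below, those were 1260 and 738 of 18386. With the number as a block over all libraries they were 728 and 553. A list count near these shares is a description only. Of 31 members tested, 10 had a positive difference and 0 a negative one by edgeR, where 1 was negative at an unadjusted p under 0.05 and 1 by DESeq2. In liver 19 members fell and 1 rose, and in heart 8 rose and 3 fell. The median difference was 1.62 on the log2 scale, beside -0.02 over all genes tested. Leaving out any 1 library gave 8 to 12 positive members, and without liver KO 3 there was 1 negative one. The median change was 0.40 in heart and -1.17 in liver. Over the 23 members measured in both tissues the median difference was 1.43, with 0.42 in heart and -1.02 in liver.

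Kit had 296 and 180.4 CPM in heart KO libraries and 63.1 and 48.6 CPM in heart controls, against 215, 66.5 and 123 CPM in liver KO libraries and 648, 926 and 711 CPM in liver controls. For Kit the log2 change was 2.09 ± 0.46 in heart (adjusted p = 0.018) and -2.50 ± 0.37 in liver (adjusted p = 0.0028), a difference of 4.59 (95% interval 3.25 to 5.93, adjusted p = 0.0044). Kit, the receptor of stem cell factor at chr5:75574916-75656722, rose in heart and fell in liver, with no overlap between KO and control libraries in either tissue. Bmp2 had 32.6 and 22.8 CPM in heart KO libraries and 7.03 and 9.69 CPM in heart controls, against 1106, 1074 and 1020.3 CPM in liver KO libraries and 1969, 1847 and 2056 CPM in liver controls. For Bmp2 the log2 change was 1.73 ± 0.22 in heart (adjusted p = 0.0016) and -0.88 ± 0.17 in liver (adjusted p = 0.0084), a difference of 2.60 (95% interval 1.98 to 3.23, adjusted p = 0.0017). Bmp2 encodes the ligand through which sinusoidal cells raise hepcidin in hepatocytes, and it too moved in opposite directions without overlap.

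Ackr4 had 1.59 and 3.02 CPM in heart KO libraries and 1.59 and 2.7 CPM in heart controls, against 4.16, 2.47 and 0.637 CPM in liver KO libraries and 106, 108 and 119 CPM in liver controls. For Ackr4 the log2 change was 0.10 ± 0.63 in heart (adjusted p = 0.94) and -5.51 ± 0.49 in liver (adjusted p = 0.00032), a difference of 5.62 (95% interval 3.82 to 7.41, adjusted p = 0.006). Ackr4, a receptor that removes chemokines such as CCL21, fell in liver KO libraries to the low level that both heart groups had. Ntn4 had 46.8 and 34 CPM in heart KO libraries and 20.4 and 21.9 CPM in heart controls, against 147, 83.8 and 294 CPM in liver KO libraries and 645, 505 and 686 CPM in liver controls. For Ntn4 the log2 change was 0.93 ± 0.46 in heart (adjusted p = 0.2) and -1.81 ± 0.37 in liver (adjusted p = 0.011), a difference of 2.74 (95% interval 1.40 to 4.08, adjusted p = 0.029). Ntn4, a laminin-related matrix protein, fell in liver without overlap, and the call on its difference was lost without any 1 of 7 libraries (adjusted p of up to 0.12). Gata4, which drives sinusoidal identity, fell in liver by 0.67 on the log2 scale and its difference of 0.79 (95% interval 0.09 to 1.49) was not called.

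Of the other sinusoidal members with a positive difference, Fcgr2b, Mrc1, Oit3, Maf and Tfec rose in heart. Cd209b is described with the largest differences, and its change in heart rested on heart KO 2 alone. Fcgr2b had 17.4 and 17.7 CPM in heart KO libraries and 1.27 and 2.75 CPM in heart controls, against 2346, 2376 and 1562 CPM in liver KO libraries and 4846, 5088 and 5334 CPM in liver controls. For Fcgr2b the log2 change was 3.12 ± 0.34 in heart (adjusted p = 0.0011) and -1.28 ± 0.26 in liver (adjusted p = 0.01), a difference of 4.40 (95% interval 3.42 to 5.37, adjusted p = 0.0014). Fcgr2b, the inhibitory receptor for IgG, takes up immune complexes in sinusoids. Its rise in heart ran beside that of the macrophage list, whose part was not tested. Mrc1 had 32.5 and 67.6 CPM in heart KO libraries and 1.88 and 6.63 CPM in heart controls, against 2251, 2236 and 2104 CPM in liver KO libraries and 3469.5, 3444 and 3522 CPM in liver controls. For Mrc1 the log2 change was 3.55 ± 0.49 in heart (adjusted p = 0.0032) and -0.66 ± 0.39 in liver (adjusted p = 0.28), a difference of 4.22 (95% interval 2.80 to 5.63, adjusted p = 0.0072). Mrc1, the mannose receptor, is also a macrophage marker, and its rise in heart ran beside that of the macrophage list. Oit3 had 1.4 and 1.55 CPM in heart KO libraries and 0.174 and 0.385 CPM in heart controls, against 2312, 2083 and 1349.7 CPM in liver KO libraries and 2888, 2628 and 2901 CPM in liver controls. For Oit3 the log2 change was 2.37 ± 0.42 in heart (adjusted p = 0.0052) and -0.55 ± 0.23 in liver (adjusted p = 0.14), a difference of 2.93 (95% interval 1.84 to 4.02, adjusted p = 0.0081). The heart levels of Oit3, a secreted protein of sinusoids, stayed far under those of liver in every library. Maf, a transcription factor that macrophages share, had a difference of 2.69 (heart 1.83, liver -0.86, adjusted p of the difference 0.012).

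Scavenger receptors followed. Of 25 tested, 5 had a positive and 2 a negative difference, with a median of 0.62, and 9 fell in liver. Without 1 library 3 to 5 were positive and 0 to 3 negative. Msr1 had 6.1 and 11 CPM in heart KO libraries and 0.145 and 1.32 CPM in heart controls, against 149, 107 and 181 CPM in liver KO libraries and 431, 379 and 394 CPM in liver controls. For Msr1 the log2 change was 3.52 ± 0.63 in heart (adjusted p = 0.0063) and -1.46 ± 0.41 in liver (adjusted p = 0.039), a difference of 4.98 (95% interval 3.30 to 6.67, adjusted p = 0.0065). Msr1 takes up modified lipoproteins and is also made by macrophages. Not every member differed: Stab1, a hyaluronan and phosphatidylserine receptor, fell in both tissues, by 1.88 on the log2 scale in heart and 1.02 in liver, and Stab2 changed in neither past the threshold. Scarb1, which binds high-density lipoprotein, had a difference of -1.25 (heart -1.47, liver -0.22, adjusted p of the difference 0.012), lost without heart control 3 (adjusted p = 0.052).

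The opposite side was led by genes of the cardiac capillary. Of 30 members, 4 had a negative difference and 0 a positive one, with 0 positive also at an unadjusted p under 0.05 and by DESeq2. In heart 13 fell and 0 rose (0 at an unadjusted p under 0.05 and 0 by DESeq2), and in liver 7 fell and 2 rose. The median difference was -1.48, with a median change of -1.13 in heart and 0.01 in liver. Over the 23 members measured in both tissues the median difference was -1.04, with -1.08 in heart and -0.35 in liver. With the block 6 were negative and 1 positive. Without 1 library the count of negative members ran from 3 to 8, and 1 member was positive without liver KO 1 or liver KO 3.

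Fabp4 had 1849.9 and 2648 CPM in heart KO libraries and 4246 and 5988 CPM in heart controls, against 1803, 1397 and 1822 CPM in liver KO libraries and 299.6, 324 and 325 CPM in liver controls. For Fabp4 the log2 change was -1.19 ± 0.26 in heart (adjusted p = 0.015) and 2.40 ± 0.21 in liver (adjusted p = 0.00019), a difference of -3.59 (95% interval -4.34 to -2.85, adjusted p = 0.001). Fabp4, a fatty acid carrier of heart capillaries, fell in heart and rose in liver, with no overlap between KO and control libraries in either. Fabp5 had 171 and 224 CPM in heart KO libraries and 213 and 234 CPM in heart controls, against 389, 313 and 492 CPM in liver KO libraries and 71.2, 78.5 and 78.8 CPM in liver controls. For Fabp5 the log2 change was -0.18 ± 0.21 in heart (adjusted p = 0.6) and 2.39 ± 0.17 in liver (adjusted p = 7.2e-05), a difference of -2.56 (95% interval -3.17 to -1.96, adjusted p = 0.0017). Its relative Fabp5 rose in liver without overlap and was not called in heart.

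Slc28a2 had 36.6 and 43.7 CPM in heart KO libraries and 758 and 618 CPM in heart controls, against 0.883, 0.517 and 0.669 CPM in liver KO libraries and 0.8, 1.1 and 1.49 CPM in liver controls. For Slc28a2 the log2 change was -4.10 ± 0.24 in heart (adjusted p = 7.8e-05) and -0.71 ± 0.27 in liver (adjusted p = 0.1), a difference of -3.39 (95% interval -4.20 to -2.58, adjusted p = 0.0017). Slc28a2, a nucleoside transporter at chr2:122426477-122461137, fell to a small fraction of its heart control level, while liver libraries stayed near 1 CPM. Car4 had 34.2 and 63.3 CPM in heart KO libraries and 225 and 355 CPM in heart controls, against 0.473, 0.632 and 3.5 CPM in liver KO libraries and 0.284, 0.4 and 0.238 CPM in liver controls. For Car4 the log2 change was -2.57 ± 0.64 in heart (adjusted p = 0.031) and 2.31 ± 0.86 in liver (adjusted p = 0.08), a difference of -4.88 (95% interval -7.30 to -2.47, adjusted p = 0.026). Car4, a carbonic anhydrase of the cell surface, fell in heart, and the call on its difference was lost without any 1 of 7 libraries, with an adjusted p of up to 0.089. Gpihbp1, which holds lipoprotein lipase on capillaries, fell in both tissues, by 2.42 on the log2 scale in heart and 2.34 in liver, with a difference of -0.08 (95% interval -1.53 to 1.37).

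Fatty acid handling as a whole shares members with the capillary list. It had 5 negative differences and 0 positive ones of 24 (1 positive at an unadjusted p under 0.05, 0 by DESeq2). The median difference was -1.09, or -0.76 over the 20 members measured in both tissues. With the block 6 were negative and 1 positive. Without 1 library 3 to 7 were negative, and 1 was positive without liver KO 1 or liver KO 3. Lipe had 23.9 and 19.9 CPM in heart KO libraries and 188 and 244 CPM in heart controls, against 16.5, 13.2 and 19 CPM in liver KO libraries and 15.8, 17.4 and 14.5 CPM in liver controls. For Lipe the log2 change was -3.30 ± 0.19 in heart (adjusted p = 7.2e-05) and 0.03 ± 0.16 in liver (adjusted p = 0.93), a difference of -3.33 (95% interval -3.89 to -2.76, adjusted p = 0.00038). Lipe encodes hormone-sensitive lipase. It fell in heart without overlap, while KO and control libraries overlapped in liver. Pnpla2, which starts the breakdown of stored triglyceride, had a difference of -1.40 (heart -0.57, liver 0.83, adjusted p of the difference 0.024), lost without any 1 of 5 libraries (adjusted p of up to 0.086). Apold1, an immediate early gene of endothelium, had -3.18 (heart -1.46, liver 1.72, adjusted p of the difference 0.034), lost without any 1 of 6 libraries (adjusted p of up to 0.13).

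**Figure D2:**
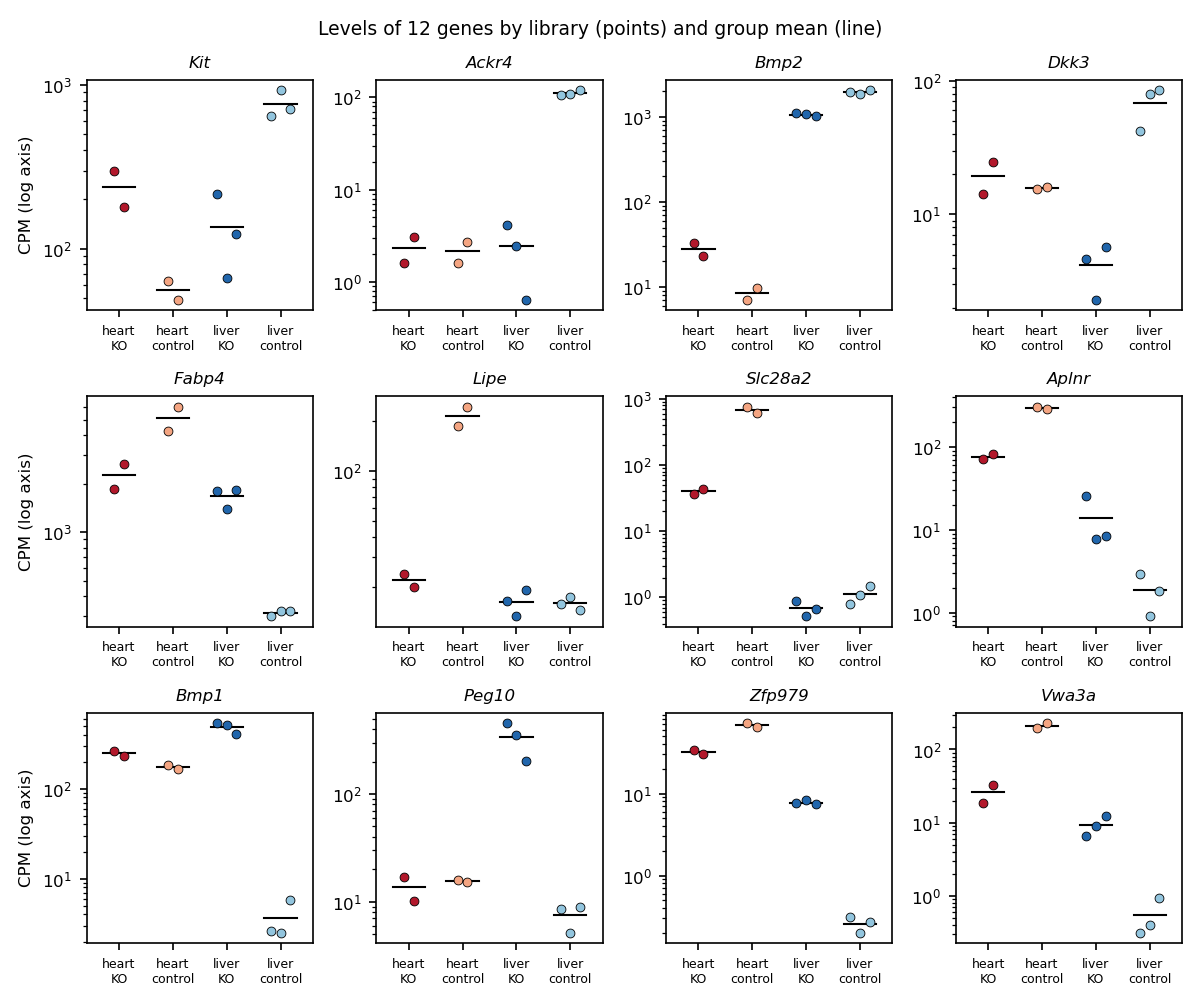
Levels in CPM on log axes for 12 genes in the 2 heart KO, 2 heart control, 3 liver KO and 3 liver control libraries, with each point a library and each line the group mean. Kit and Bmp2 were higher in heart KO and lower in liver KO libraries than in their controls, and Fabp4 and Aplnr the reverse.

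Chemokine receptors and adhesion molecules had 7 positive differences and 1 negative one of 28, with a median of 0.85. With the block for number within genotype 18 were positive, or 8 with the number as a block over all libraries. Leaving out any 1 library gave 5 to 10. Selp had 45.5 and 18.6 CPM in heart KO libraries and 2.37 and 2.64 CPM in heart controls, against 31.1, 25.2 and 47.6 CPM in liver KO libraries and 64.3, 40.2 and 45.2 CPM in liver controls. For Selp the log2 change was 3.67 ± 0.44 in heart (adjusted p = 0.0016) and -0.53 ± 0.34 in liver (adjusted p = 0.32), a difference of 4.20 (95% interval 2.95 to 5.46, adjusted p = 0.0046). Selp, which encodes P-selectin and catches leukocytes on activated endothelium, rose in heart, while liver KO and control libraries overlapped. Ackr1 had 1.3 and 1.11 CPM in heart KO libraries and 0.405 and 0.193 CPM in heart controls, against 7.26, 7.3 and 3.89 CPM in liver KO libraries and 51.1, 22.6 and 39.2 CPM in liver controls. For Ackr1 the log2 change was 2.01 ± 0.55 in heart (adjusted p = 0.033) and -2.61 ± 0.34 in liver (adjusted p = 0.0014), a difference of 4.62 (95% interval 3.15 to 6.08, adjusted p = 0.0048). Ackr1, the atypical chemokine receptor of venules, moved in opposite directions in the tissues. It was low in heart.

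Ackr3 had 182 and 144 CPM in heart KO libraries and 259.6 and 239 CPM in heart controls, against 33.2, 31.8 and 27.7 CPM in liver KO libraries and 14.2, 11.8 and 12.8 CPM in liver controls. For Ackr3 the log2 change was -0.61 ± 0.15 in heart (adjusted p = 0.023) and 1.26 ± 0.12 in liver (adjusted p = 0.0003), a difference of -1.87 (95% interval -2.31 to -1.43, adjusted p = 0.0016). Ackr3, which removes CXCL12, was the member with a negative difference. Venous genes, which share Selp, Ackr1 and Ackr3 with this list, had 4 positive and 1 negative of 19, or 8 positive with the block. Slco2a1 had 136 and 153 CPM in heart KO libraries and 30.8 and 46.3 CPM in heart controls, against 407, 384 and 194 CPM in liver KO libraries and 825, 881 and 827 CPM in liver controls. For Slco2a1 the log2 change was 1.91 ± 0.32 in heart (adjusted p = 0.0057) and -1.36 ± 0.26 in liver (adjusted p = 0.0076), a difference of 3.27 (95% interval 2.34 to 4.20, adjusted p = 0.0036). Slco2a1, the prostaglandin transporter, rose in heart and fell in liver without overlap.

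Among arterial genes 2 of 25 had a positive and 0 a negative difference by edgeR (4 negative at an unadjusted p under 0.05, 3 by DESeq2). The median difference was -0.58, and 5 members lay above the median of all genes tested. With the block 7 were positive and 2 negative, and with the number as a block over all libraries 0 and 0. The members called with no block were the connexins Gja4, 2.17 (heart 1.22, liver -0.95, adjusted p of the difference 0.025), and Gja5, 2.05 (heart -1.23, liver -3.28, adjusted p of the difference 0.048). Leaving out any 1 of 3 libraries ended the call for Gja4 (adjusted p of up to 0.11) and any 1 of 9 that for Gja5 (up to 0.16). Gja5 fell in liver, and its fall in heart was not called.

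Genes of the Wnt pathway and of signals that liver endothelium sends to hepatocytes had 3 positive and 0 negative differences of 25 by edgeR (1 negative at an unadjusted p under 0.05, 1 by DESeq2). With the block 8 were positive, or 4 with the number as a block over all libraries. Dkk3 had 14.2 and 24.7 CPM in heart KO libraries and 15.4 and 16 CPM in heart controls, against 4.61, 2.3 and 5.7 CPM in liver KO libraries and 42.1, 79.2 and 84.5 CPM in liver controls. For Dkk3 the log2 change was 0.31 ± 0.43 in heart (adjusted p = 0.68) and -4.03 ± 0.36 in liver (adjusted p = 0.0003), a difference of 4.34 (95% interval 3.06 to 5.61, adjusted p = 0.0044). Dkk3, a secreted member of the Dickkopf family, fell in liver, while heart libraries of the genotypes overlapped. Nkd1, an inhibitor of Wnt signalling, had 1.87 (heart 0.10, liver -1.78, adjusted p of the difference 0.028), lost without any 1 of 7 libraries (adjusted p of up to 0.13).

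Of 40 collagen and other matrix genes, 14 rose and 2 fell in heart, and 15 rose and 3 fell in liver. The difference was positive for 2 and negative for 2 (4% and 3.11% over all genes tested). With the block 17 were positive and 4 negative, or 3 and 1 with the number as a block over all libraries. Without 1 library the positive count ran from 1 to 10. Col5a2 had 334 and 343 CPM in heart KO libraries and 62.6 and 57.9 CPM in heart controls, against 72.3, 83 and 74.6 CPM in liver KO libraries and 64.4, 57.1 and 60 CPM in liver controls. For Col5a2 the log2 change was 2.49 ± 0.11 in heart (adjusted p = 3.7e-05) and 0.34 ± 0.09 in liver (adjusted p = 0.031), a difference of 2.15 (95% interval 1.82 to 2.48, adjusted p = 0.00019). Col5a1 had 118 and 94.9 CPM in heart KO libraries and 50.6 and 44.6 CPM in heart controls, against 57.9, 73.3 and 33 CPM in liver KO libraries and 2.89, 4.1 and 3.92 CPM in liver controls. For Col5a1 the log2 change was 1.16 ± 0.31 in heart (adjusted p = 0.035) and 3.91 ± 0.27 in liver (adjusted p = 7.2e-05), a difference of -2.75 (95% interval -3.69 to -1.82, adjusted p = 0.0067). These genes encode chains of type V collagen, and both rose in both tissues, Col5a2 more in heart and Col5a1 more in liver. In liver controls Col5a1 was under 5 CPM.

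Markers of matrix-producing cells stood beside these values. Of 18 markers of stellate cells and cholangiocytes 4 rose and 1 fell in liver, with a summed level of 872 to 1329.8 CPM in liver KO libraries, against 257 to 327 CPM in liver controls. In heart 4 of them rose, and the sum was 1102 to 1367 CPM in heart KO libraries, against 1102 to 1415 CPM in heart controls. Mural cell markers summed to 458 to 1122 CPM in liver KO libraries, against 239.8 to 303 CPM in liver controls, and 1 of 15 rose. In heart 1 rose as well, with sums of 1457 to 1730 CPM in KO libraries, against 1489.9 to 1543 CPM in controls. Of 16 fibroblast markers 2 rose in heart, with 3707.5 to 4962 CPM in heart KO libraries, against 2979 to 3444 CPM in heart controls. In liver 3 rose and 3 fell, with 136 to 359 CPM in KO libraries, against 205 to 221 CPM in controls. The part of these cells in the matrix and mesenchymal values was not tested.

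Mesenchymal and contractile genes had 3 positive differences and 0 negative ones of 24 (2 negative at an unadjusted p under 0.05, 1 by DESeq2). With the block 6 were positive and 2 negative. Their median difference was 0.23, or -0.18 over the 20 members measured in both tissues. Itga5 had 862 and 558 CPM in heart KO libraries and 253 and 181 CPM in heart controls, against 153, 112 and 135 CPM in liver KO libraries and 256, 222 and 196 CPM in liver controls. For Itga5 the log2 change was 1.71 ± 0.25 in heart (adjusted p = 0.0032) and -0.75 ± 0.21 in liver (adjusted p = 0.034), a difference of 2.46 (95% interval 1.73 to 3.20, adjusted p = 0.0042). Itga5, a subunit of the fibronectin receptor, rose in heart and fell in liver. Vim, the intermediate filament vimentin, rose in both, with 1.59 (heart 2.26, liver 0.68, adjusted p of the difference 0.017), lost without heart control 1, heart control 3 or heart KO 2 (adjusted p of up to 0.072).

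Junction genes had 3 positive and 3 negative differences of 25, or 4 and 2 with the block. Without 1 library 0 to 3 were positive and 1 to 3 negative, with 0 and 2 without heart control 1. Afdn had 218 and 251 CPM in heart KO libraries and 1052 and 1168 CPM in heart controls, against 132, 132 and 126 CPM in liver KO libraries and 120.3, 106 and 107 CPM in liver controls. For Afdn the log2 change was -2.24 ± 0.13 in heart (adjusted p = 7.2e-05) and 0.23 ± 0.11 in liver (adjusted p = 0.18), a difference of -2.47 (95% interval -2.86 to -2.08, adjusted p = 0.00023). Afdn encodes afadin, which ties nectins to actin, and it fell in heart without overlap and was not called in liver. Cldn5, the tight junction protein claudin 5, had 1.02 (heart 0.46, liver -0.57, adjusted p of the difference 0.011), and the scaffold Tjp1 had -1.01 (heart -0.62, liver 0.39, adjusted p of the difference 0.012). The call was lost without either heart control for Cldn5 (adjusted p of up to 0.054) and without heart control 3 for Tjp1 (0.053).

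Genes of general endothelial identity fell more often than they rose in both tissues. Of 40, 18 fell and 4 rose in heart, and 21 fell and 4 rose in liver. The difference was positive for 2 and negative for 2 (4% and 3.11% over all genes tested), or 4 and 5 with the block. The median change was -0.79 in heart and -0.64 in liver, with a median difference of -0.06. S1pr1 had 1041 and 1200.1 CPM in heart KO libraries and 1074 and 1037 CPM in heart controls, against 488, 463 and 443 CPM in liver KO libraries and 191, 171 and 183 CPM in liver controls. For S1pr1 the log2 change was 0.09 ± 0.14 in heart (adjusted p = 0.73) and 1.35 ± 0.12 in liver (adjusted p = 0.00015), a difference of -1.27 (95% interval -1.69 to -0.85, adjusted p = 0.0058). S1pr1, a sphingosine 1-phosphate receptor that steadies junctions, rose in liver and was not called in heart. Mmrn2 had 437 and 477 CPM in heart KO libraries and 577 and 589.7 CPM in heart controls, against 387, 285 and 345 CPM in liver KO libraries and 1361, 1105 and 1142 CPM in liver controls. For Mmrn2 the log2 change was -0.35 ± 0.18 in heart (adjusted p = 0.22) and -1.83 ± 0.15 in liver (adjusted p = 0.00013), a difference of 1.48 (95% interval 0.95 to 2.01, adjusted p = 0.0083). Mmrn2, a matrix protein of vessels, fell in liver without overlap and was not called in heart. Rasip1, a regulator of vessel lumens, had -0.98 (heart -1.37, liver -0.39, adjusted p of the difference 0.04), lost without any 1 of 8 libraries (adjusted p of up to 0.14).

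The receptor for apelin led the list of tip cell and angiogenic genes. Aplnr had 71.1 and 81.5 CPM in heart KO libraries and 304 and 285 CPM in heart controls, against 25.3, 7.65 and 8.35 CPM in liver KO libraries and 2.92, 0.9 and 1.84 CPM in liver controls. For Aplnr the log2 change was -1.95 ± 0.55 in heart (adjusted p = 0.046) and 2.84 ± 0.51 in liver (adjusted p = 0.0058), a difference of -4.79 (95% interval -6.48 to -3.10, adjusted p = 0.009). Aplnr fell in heart and rose in liver without overlap, and its call was lost without heart KO 1 (adjusted p = 0.051). Among the 25 genes of this list 2 had a negative difference (3.11% over all genes tested), and with the block 7 were positive and 6 negative.

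Glycolysis and hypoxia genes rose in both tissues, 14 of 26 in heart and 13 in liver, with 2 positive differences and 1 negative one. The median difference was 0.61. With the block 11 were positive, or 5 with the number as a block over all libraries. The positive members were Pgam1, 1.32 (adjusted p of the difference 0.010), and Pgk1, 1.37 (0.030). The call was lost without heart control 1 for Pgam1 (adjusted p = 0.060) and without any 1 of 7 libraries for Pgk1 (up to 0.11). Ddit4 was the negative one. Ddit4 had 552 and 835 CPM in heart KO libraries and 368 and 395 CPM in heart controls, against 518, 501 and 813 CPM in liver KO libraries and 74.9, 58.9 and 76.3 CPM in liver controls. For Ddit4 the log2 change was 0.86 ± 0.28 in heart (adjusted p = 0.061) and 3.12 ± 0.23 in liver (adjusted p = 9.1e-05), a difference of -2.26 (95% interval -3.06 to -1.46, adjusted p = 0.0081). Ddit4, an inhibitor of mTORC1 that stress induces, rose in liver, and its change in heart was not called. Nt5e, the ecto-enzyme that makes adenosine, is counted with the coagulation genes and not here. It rose in liver as well, with -3.64 (heart 1.43, liver 5.08, adjusted p of the difference 0.015), lost without heart control 3 or heart KO 1 (adjusted p of up to 0.069).

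Guidance genes, the semaphorins, plexins, ephrins and their receptors, had 5 positive differences and 1 negative one of 39, or 9 and 4 with the block, and a median of -0.07. Sema4b had 58.5 and 38.9 CPM in heart KO libraries and 3.96 and 3.82 CPM in heart controls, against 149, 184 and 125 CPM in liver KO libraries and 68.2, 84.2 and 82 CPM in liver controls. For Sema4b the log2 change was 3.64 ± 0.23 in heart (adjusted p = 0.00011) and 0.97 ± 0.18 in liver (adjusted p = 0.0064), a difference of 2.68 (95% interval 2.02 to 3.34, adjusted p = 0.0018). Sema4b, a membrane-bound semaphorin, rose in both tissues and more in heart, and it kept its call on the difference without any 1 library. Sema4a had 1.91 and 1.86 CPM in heart KO libraries and 0.55 and 0.413 CPM in heart controls, against 3, 2.27 and 1.82 CPM in liver KO libraries and 6.73, 7.13 and 11.7 CPM in liver controls. For Sema4a the log2 change was 1.96 ± 0.40 in heart (adjusted p = 0.011) and -1.85 ± 0.30 in liver (adjusted p = 0.0034), a difference of 3.81 (95% interval 2.69 to 4.93, adjusted p = 0.004). Sema4a, of the same class, rose in heart and fell in liver, and its call also held without any 1 library. The secreted Sema3d had 3.52 (heart 0.64, liver -2.88, adjusted p of the difference 0.022), lost without any 1 of the 4 heart libraries (adjusted p of up to 0.10).

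Of 23 genes of coagulation and fibrinolysis, 4 had a positive difference and 1, Nt5e, a negative one, or 8 positive with the block, and without heart control 1 the positive count was 1. In heart 8 rose and 1 fell, and in liver 8 rose and 4 fell. Tfpi, the inhibitor of the tissue factor pathway, rose in heart and fell in liver, with a difference of 1.36 (heart 0.64, liver -0.72, adjusted p of the difference 0.012), lost without heart control 1 (adjusted p = 0.067). Pros1, which encodes the anticoagulant protein S, had 0.97 (heart 0.50, liver -0.47, adjusted p of the difference 0.033), lost without any 1 of 6 libraries (adjusted p of up to 0.14).

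Among 20 Notch genes 1 had a positive and 2 a negative difference (4% and 3.11% over all genes tested), or 4 and 2 with the block. Lfng had 27 and 43.7 CPM in heart KO libraries and 17.5 and 37.6 CPM in heart controls, against 31.8, 12.8 and 11.9 CPM in liver KO libraries and 147, 204 and 158 CPM in liver controls. For Lfng the log2 change was 0.36 ± 0.50 in heart (adjusted p = 0.67) and -3.17 ± 0.41 in liver (adjusted p = 0.0015), a difference of 3.53 (95% interval 2.07 to 4.99, adjusted p = 0.017). Lfng, a glycosyltransferase that modifies Notch receptors, fell in liver and was not called in heart, and its call was lost without heart control 1 or heart KO 2 (adjusted p of up to 0.080). Nrarp, a feedback inhibitor of Notch, rose in liver, with -1.75 (heart -0.61, liver 1.13, adjusted p of the difference 0.022), lost without any 1 of 4 libraries (adjusted p of up to 0.096). Notch1 itself fell in both tissues, by 1.5 on the log2 scale in heart and 0.82 in liver, and its difference was not called (adjusted p = 0.065).

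Of 33 genes of TGF-beta and BMP signalling, 3 had a positive difference and 0 a negative one by edgeR (4 negative at an unadjusted p under 0.05, 3 by DESeq2), or 7 positive with the block. Beside Bmp2 these were the receptor Tgfbr2, 1.18 (heart 1.38, liver 0.20, adjusted p of the difference 0.027), which rose in heart, and the latent TGF-beta binding protein Ltbp4, 1.86 (heart -2.12, liver -3.97, adjusted p of the difference 0.047), which fell in both tissues. Both calls were lost with the block, at adjusted p = 0.062 for Tgfbr2 and 0.057 for Ltbp4, and without any 1 of 7 libraries for Tgfbr2 and 9 for Ltbp4.

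Genes of p53 and growth arrest had 2 positive and 3 negative differences of 26, or 4 and 4 with the block. Gadd45a had 20.5 and 17.3 CPM in heart KO libraries and 13.9 and 18.5 CPM in heart controls, against 51.8, 30.8 and 91.3 CPM in liver KO libraries and 7.66, 4.43 and 8.26 CPM in liver controls. For Gadd45a the log2 change was 0.23 ± 0.45 in heart (adjusted p = 0.78) and 3.09 ± 0.37 in liver (adjusted p = 0.00097), a difference of -2.87 (95% interval -4.18 to -1.56, adjusted p = 0.023). Gadd45a, which stress and DNA damage induce, rose in liver and was not called in heart, and the call on its difference was lost without any 1 of the 4 heart libraries (adjusted p of up to 0.090). Phlda3, a p53 target that restrains Akt, rose in both tissues, with 1.58 (heart 3.02, liver 1.44, adjusted p of the difference 0.011), lost without heart control 1 (adjusted p = 0.060). Of 28 cell cycle genes 2 had a positive difference (4% over all genes tested) and 0 a negative one (0 at an unadjusted p under 0.05, 0 by DESeq2). Without 1 library the positive count ran from 0 to 6. The median was 1.17. In heart 4 rose, and in liver 4 fell. The members called, Ccnd2 at 0.99 and Cenpa at 2.0, each lost the call without any 1 of 7 libraries.

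Of 27 genes of the ATF4 stress response and amino acid transport, 1 had a positive and 0 a negative difference by edgeR (1 negative at an unadjusted p under 0.05, 0 by DESeq2), or 4 positive with the block. Slc7a5 had 46.5 and 26.1 CPM in heart KO libraries and 15.8 and 9.44 CPM in heart controls, against 45.2, 9.97 and 11.8 CPM in liver KO libraries and 104, 147 and 167 CPM in liver controls. For Slc7a5 the log2 change was 1.52 ± 0.66 in heart (adjusted p = 0.15) and -2.64 ± 0.53 in liver (adjusted p = 0.011), a difference of 4.17 (95% interval 2.26 to 6.07, adjusted p = 0.025). Slc7a5, a transporter of large neutral amino acids, fell in liver and was not called in heart, and without any 1 of 5 libraries the call on its difference was lost (adjusted p of up to 0.11). Immediate early genes, which tissue dissociation also induces, had 0 called differences of 30 by edgeR (1 positive and 7 negative at an unadjusted p under 0.05, 0 and 3 by DESeq2). Their median change was -0.49 in heart and 0.88 in liver, and 6 rose in liver. Their summed level was 27146 to 28089 CPM in heart KO libraries and 33853 to 42732 CPM in heart controls, against 3875.5 to 22338 CPM in liver KO libraries and 3250.5 to 9555 CPM in liver controls. Their part in the results was not tested.

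**Figure D3:**
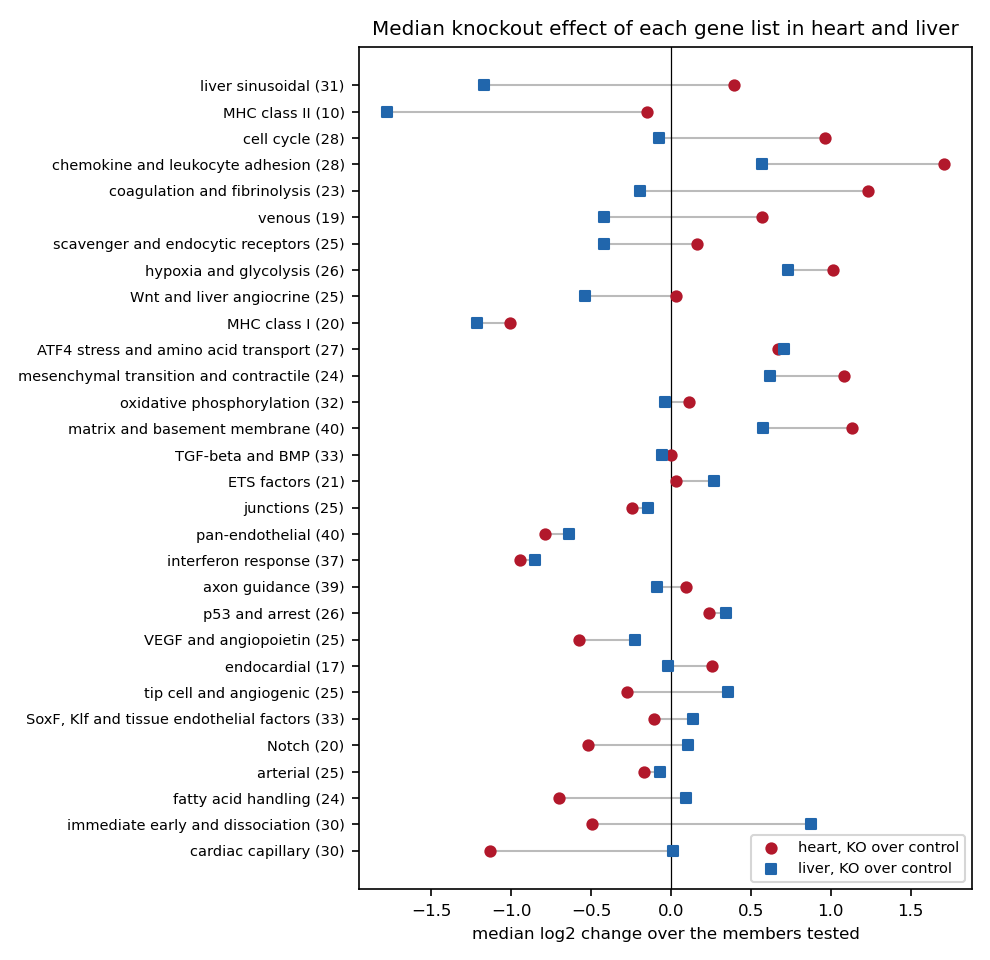
Median log2 change of KO over control for each endothelial or pathway list in heart (circles) and liver (squares), with the number of members tested in parentheses and lists ordered by the median of their members' differences. Liver sinusoidal genes have a median of 0.40 in heart and -1.17 in liver, and cardiac capillary genes -1.13 in heart and 0.01 in liver. Members near zero in a tissue are included.

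By size, the largest positive differences among genes measured in both tissues were those of Cd209b, Sftpc, Hmga2, Ccn4, Syt12, Slc34a2, Hc, Car3, Arg1 and Il1a. A gene needed 10 CPM in some group and full separation of libraries in at least 1 tissue. Cd209b is also on the liver sinusoidal list, and Sftpc and Slc34a2 are on the lung epithelial one. All the genes named were low in heart controls. Cd209b, a lectin of sinusoids, had 4.19 CPM in heart KO 2 and no count in the other 3 heart libraries. Its 1.83, 0.115 and 0.35 CPM in liver KO libraries stood against 23.8, 23.2 and 28.7 CPM in liver controls. Its change in heart was not called and rested on that single library, and with the block the adjusted p of its difference was 0.081, against 0.039 without it.

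Hmga2 had 15.6 and 10.8 CPM in heart KO libraries and 0.0579 and 0 CPM in heart controls, against 6.25, 2.44 and 9.01 CPM in liver KO libraries and 13.4, 4.2 and 6 CPM in liver controls. It encodes a chromatin protein of embryonic and tumour cells. The heart controls held 2 counts, so the ratio of KO over control was 470 with a 95% counting interval of 130 to 3889, and the difference had an adjusted p of 0.0044. Ccn4 had 8.16 and 4.78 CPM in heart KO libraries and 0.0868 and 0.0275 CPM in heart controls, against 33.8, 24.8 and 4.33 CPM in liver KO libraries and 124, 72 and 85.2 CPM in liver controls. For Ccn4 the log2 change was 6.75 ± 1.83 in heart (adjusted p = 0.0067) and -2.16 ± 0.57 in liver (adjusted p = 0.034), a difference of 8.91 (95% interval 4.60 to 13.22, adjusted p = 0.0065). Ccn4, a matricellular protein, rose in heart and fell in liver.

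Syt12, a synaptotagmin, had 354 counts in heart KO libraries and 3 in heart controls, a ratio of 105 (95% counting interval 35.7 to 513), and fell in liver by 1.46 on the log2 scale. Hc had 4.07 and 5.4 CPM in heart KO libraries and 0.0579 and 0.055 CPM in heart controls, against 8.26, 8.1 and 8.54 CPM in liver KO libraries and 20.4, 21.1 and 34.7 CPM in liver controls. For Hc the log2 change was 6.30 ± 0.55 in heart (adjusted p = 0.0001) and -1.61 ± 0.22 in liver (adjusted p = 0.0015), a difference of 7.92 (95% interval 6.59 to 9.25, adjusted p = 0.00011). Hc encodes complement component C5. Il1a had 36 and 18 CPM in heart KO libraries and 0.463 and 0.908 CPM in heart controls, against 141, 135 and 104 CPM in liver KO libraries and 267, 108 and 134 CPM in liver controls. For Il1a the log2 change was 5.28 ± 0.56 in heart (adjusted p = 0.00079) and -0.42 ± 0.36 in liver (adjusted p = 0.46), a difference of 5.71 (95% interval 4.20 to 7.22, adjusted p = 0.0023). Il1a, the cytokine interleukin 1 alpha, rose in heart, and its liver libraries overlapped. Arg1, arginase, had 6.53 (heart 5.95, liver -0.58, adjusted p of the difference 0.0074), lost without heart control 3 (adjusted p = 0.051). Car3, a carbonic anhydrase, had 7.51 (heart 3.41, liver -4.10, adjusted p of the difference 0.046), but heart KO 1 held no count of it, the call was lost without any 1 of 7 libraries, and its sign turned without heart KO 2.

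The largest negative differences were rises in liver of genes whose mean was under 10 CPM in liver controls. Bmp1 had 264 and 233 CPM in heart KO libraries and 185 and 167 CPM in heart controls, against 531, 513 and 405 CPM in liver KO libraries and 2.63, 2.5 and 5.83 CPM in liver controls. For Bmp1 the log2 change was 0.49 ± 0.33 in heart (adjusted p = 0.35) and 7.05 ± 0.29 in liver (adjusted p = 1.1e-05), a difference of -6.55 (95% interval -7.54 to -5.56, adjusted p = 0.0003). Bmp1, the procollagen C-proteinase at chr14:70474558-70520234, was already high in heart and overlapped in no tissue. Peg10 had 16.9 and 10.2 CPM in heart KO libraries and 15.8 and 15.3 CPM in heart controls, against 453, 358 and 203 CPM in liver KO libraries and 8.59, 5.13 and 8.89 CPM in liver controls. For Peg10 the log2 change was -0.20 ± 0.39 in heart (adjusted p = 0.77) and 5.48 ± 0.32 in liver (adjusted p = 4.5e-05), a difference of -5.68 (95% interval -6.80 to -4.56, adjusted p = 0.00096). Peg10 is an imprinted gene derived from a retrotransposon, and its heart libraries overlapped. Cacna1h had 11.5 and 11 CPM in heart KO libraries and 14.8 and 10.7 CPM in heart controls, against 24.5, 28.9 and 103 CPM in liver KO libraries and 0.258, 0.0667 and 0.0892 CPM in liver controls. For Cacna1h the log2 change was -0.18 ± 0.62 in heart (adjusted p = 0.88) and 8.46 ± 0.84 in liver (adjusted p = 0.00018), a difference of -8.64 (95% interval -10.99 to -6.29, adjusted p = 0.0023). Cacna1h, a T-type calcium channel, was highest in liver KO 3.

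Ppp1r14c had 1.42 and 1.68 CPM in heart KO libraries and 0.666 and 1.21 CPM in heart controls, against 12.6, 15 and 13.6 CPM in liver KO libraries and 0.0258, 0.1 and 0.0297 CPM in liver controls. For Ppp1r14c the log2 change was 0.72 ± 0.39 in heart (adjusted p = 0.24) and 8.02 ± 0.54 in liver (adjusted p = 1.8e-05), a difference of -7.30 (95% interval -8.80 to -5.80, adjusted p = 0.00053). Ppp1r14c, an inhibitor of protein phosphatase 1, rose in liver and was not called in heart. Zfp979 had 34 and 30.3 CPM in heart KO libraries and 71.5 and 63.8 CPM in heart controls, against 7.57, 8.36 and 7.36 CPM in liver KO libraries and 0.31, 0.2 and 0.268 CPM in liver controls. For Zfp979 the log2 change was -1.07 ± 0.15 in heart (adjusted p = 0.0028) and 4.87 ± 0.18 in liver (adjusted p = 1.7e-06), a difference of -5.94 (95% interval -6.48 to -5.40, adjusted p = 1.5e-05). Zfp979, a zinc finger gene, fell in heart and rose in liver, with the narrowest interval of these 10 genes. Gdf10 had 2.25 and 5.32 CPM in heart KO libraries and 3.7 and 3.71 CPM in heart controls, against 14.8, 28.9 and 68.3 CPM in liver KO libraries and 0.851, 0.667 and 0.743 CPM in liver controls. For Gdf10 the log2 change was 0.03 ± 0.62 in heart (adjusted p = 0.99) and 5.62 ± 0.55 in liver (adjusted p = 0.00044), a difference of -5.59 (95% interval -7.45 to -3.72, adjusted p = 0.0073). Gdf10 is a ligand of the TGF-beta family.

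Lancl3 rose in both tissues, with a difference of -5.63 (heart 1.07, liver 6.70, adjusted p of the difference 0.00034). Hrct1 rose in liver, with -5.93 (heart -0.87, liver 5.06, adjusted p of the difference 0.00031). A2m, the protease inhibitor alpha-2-macroglobulin, had -6.81 (heart -1.77, liver 5.04, adjusted p of the difference 0.027), lost without any 1 of 6 libraries, with an adjusted p of up to 0.16. Of the 10 genes in this group, 9 kept their call when any 1 library was left out.

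Opposite calls in heart and liver were found for 159 genes, or 153 with the library number as a block. The block within genotype gave 116. Its changes within a tissue compare KO and control at number 1, so that count is not of the same measure. The 6 with the largest smaller change were Sftpc, Ccn4, Vwa3a, Sftpa1, Cd84 and Kit. Of these, Sftpa1 was near zero in liver, and the KO and control libraries of Sftpc overlapped there. Vwa3a had 18.4 and 33.2 CPM in heart KO libraries and 198 and 227 CPM in heart controls, against 6.47, 9.05 and 12.2 CPM in liver KO libraries and 0.31, 0.4 and 0.922 CPM in liver controls. For Vwa3a the log2 change was -3.04 ± 0.39 in heart (adjusted p = 0.0022) and 4.09 ± 0.42 in liver (adjusted p = 0.00032), a difference of -7.13 (95% interval -8.43 to -5.83, adjusted p = 0.00053). Vwa3a, named for its von Willebrand factor A domain, fell in heart and rose in liver, in all 5 KO libraries. Cd84 had 3.28 and 5.3 CPM in heart KO libraries and 0.752 and 0.578 CPM in heart controls, against 23.1, 25.5 and 23 CPM in liver KO libraries and 147, 136 and 162 CPM in liver controls. For Cd84 the log2 change was 2.68 ± 0.25 in heart (adjusted p = 0.00041) and -2.64 ± 0.16 in liver (adjusted p = 3.1e-05), a difference of 5.32 (95% interval 4.65 to 6.0, adjusted p = 6.9e-05). Cd84, a SLAM family receptor of blood cells, went the other way.

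The genes near zero in 1 tissue were 909 for heart and 1438 for liver. In the first class 50 were called (35 positive, 15 negative), and in the second 65 (36 positive, 29 negative). Near zero in heart, the positive side was Fcrlb, Col17a1, Tfec, Serpina3i and Rubcnl. Tfec had 1 and 0.93 CPM in heart KO libraries and 0 and 0.0275 CPM in heart controls, against 43.9, 35.4 and 21 CPM in liver KO libraries and 63.3, 62.7 and 60.8 CPM in liver controls. Tfec, a transcription factor that macrophages also make, had 77 counts in heart KO libraries and 1 in heart controls, a ratio of 68.7 (95% counting interval 12 to 2747). It fell in liver by 0.90 on the log2 scale. Fcrlb, an Fc receptor-like protein, had 52 counts in heart KO libraries and none in heart controls, and was at least 15.5-fold higher (floor of 3 counts over the group).

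Col17a1, a collagen of hemidesmosomes, had 6.70 (heart 1.44, liver -5.27, adjusted p of the difference 0.011), lost without either heart control (adjusted p of up to 0.064). The heart controls had no count of Serpina3i or Rubcnl, which were at least 10.1-fold and 7.13-fold higher in heart KO libraries by the same floor. Serpina3i kept its call without 3 of the 10 single libraries and Rubcnl without 5. On the negative side Fat3, a large cadherin, had -8.49 (heart -0.26, liver 8.24, adjusted p of the difference 0.01). Lrrn3, Zbtb8b, Cnmd and Capn3 also rose in liver. Cnmd, which encodes chondromodulin, had 182, 105 and 268 CPM in liver KO libraries, against 4.05, 5.07 and 6.39 CPM in liver controls. With the block within genotype the differences of Cnmd and Capn3 had adjusted p = 0.057 and 0.056. The call was lost without heart control 1 for Fat3 and without heart control 3 for Zbtb8b, and without any 1 of 4, 7 and 7 libraries for Lrrn3, Cnmd and Capn3.

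Near zero in liver, the negative side was Capn12, Akap5, Dach1, Trpm3 and Ephb1. Akap5 had 3.99 and 3.33 CPM in heart KO libraries and 36.5 and 24.2 CPM in heart controls, against 1.07, 1.01 and 0.446 CPM in liver KO libraries and 0.31, 0.4 and 0.238 CPM in liver controls. For Akap5 the log2 change was -3.05 ± 0.38 in heart (adjusted p = 0.0017) and 1.41 ± 0.38 in liver (adjusted p = 0.031), a difference of -4.46 (95% interval -5.67 to -3.25, adjusted p = 0.0026). Akap5 anchors protein kinase A. Ephb1 had 1.79 and 3.57 CPM in heart KO libraries and 28.5 and 30.8 CPM in heart controls, against 0.0946, 0.172 and 0.159 CPM in liver KO libraries and 0.206, 0.133 and 0.149 CPM in liver controls. For Ephb1 the log2 change was -3.47 ± 0.33 in heart (adjusted p = 0.00065) and -0.20 ± 0.45 in liver (adjusted p = 0.81), a difference of -3.27 (95% interval -4.52 to -2.01, adjusted p = 0.012). Ephb1, a receptor for ephrin-B ligands, fell in heart. Capn12, a calpain, and Trpm3, a cation channel, fell in heart too, and Dach1, a factor of coronary arteries, was not called there. The call on the difference was lost without any 1 of 4 libraries for Capn12, 4 for Trpm3 and 7 for Dach1. The positive side was Sftpa1, Scgb1a1, Sftpb, Aldh1a3 and Nptx1. Nptx1, neuronal pentraxin 1, had 112 and 82.8 CPM in heart KO libraries, against 5.06 and 4.48 CPM in heart controls. Aldh1a3, which makes retinoic acid, rose in heart by 2.22 on the log2 scale. The call on the difference was lost without any 1 of 8 libraries for Nptx1, 6 for Aldh1a3, 4 for Scgb1a1 and 1, heart control 1, for Sftpb.

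Sftpc, Sftpa1, Sftpb, Scgb1a1 and Slc34a2 are surfactant, secretory and transport genes of lung epithelium. Sftpc had 46.1 and 82.5 CPM in heart KO libraries and 0.926 and 1.29 CPM in heart controls, against 0.126, 0.259 and 0.191 CPM in liver KO libraries and 2.92, 3.43 and 0.208 CPM in liver controls. For Sftpc the log2 change was 5.85 ± 0.82 in heart (adjusted p = 0.0044) and -3.47 ± 0.93 in liver (adjusted p = 0.023), a difference of 9.32 (95% interval 6.53 to 12.11, adjusted p = 0.0045). Sftpa1 had 14.3 and 19.6 CPM in heart KO libraries and 0.174 and 0.413 CPM in heart controls, against 0.0315, 0.0287 and 0.0956 CPM in liver KO libraries and 0.774, 0.6 and 0.297 CPM in liver controls. For Sftpa1 the log2 change was 5.83 ± 0.55 in heart (adjusted p = 0.00066) and -3.36 ± 0.70 in liver (adjusted p = 0.0053), a difference of 9.19 (95% interval 7.18 to 11.19, adjusted p = 0.00083). Both were higher in each heart KO library than in each heart control, and both fell in liver. In liver Sftpa1 was near zero, and the KO and control libraries of Sftpc overlapped. Of the 13 lung epithelial genes tested, 10 rose in heart and 2 fell in liver, and 9 had a positive difference, or 4 to 8 without 1 library. The list was chosen after these values were seen and supports nothing. In CPM of total counts Sftpc was 49.3 to 84.7 in heart KO libraries, and in the lung libraries of the series it was 65.8 to 175 in KO and 1013 to 1188 in controls. Whether RNA or cells of lung entered the heart KO libraries was not tested.

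Macrophage genes moved the same way. Of 18 markers 8 had a positive difference and 0 a negative one (0 at an unadjusted p under 0.05, 0 by DESeq2), 11 rose in heart, and 0 were called in liver by edgeR, where 1 rose at an unadjusted p under 0.05 and 0 by DESeq2. With the block 15 were positive, and without 1 library 1 to 9. C1qb had 29.7 and 58.2 CPM in heart KO libraries and 2.26 and 8.06 CPM in heart controls, against 33.7, 45.4 and 23.8 CPM in liver KO libraries and 50, 37.6 and 100 CPM in liver controls. For C1qb the log2 change was 3.09 ± 0.63 in heart (adjusted p = 0.015) and -0.87 ± 0.50 in liver (adjusted p = 0.27), a difference of 3.95 (95% interval 2.15 to 5.76, adjusted p = 0.024). C1qb, a chain of complement C1q, lost the call on its difference without heart control 1 or heart KO 2 (adjusted p of up to 0.088).

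Of 14 leukocyte genes tested 6 rose in heart and 4 had a positive difference, or 6 with the block, where 2 were negative. Without 1 library 0 to 7 were positive, with 0 without heart control 1 or heart KO 1. Ptprc had 7.13 and 7.65 CPM in heart KO libraries and 1.3 and 1.98 CPM in heart controls, against 10.2, 9.71 and 2.55 CPM in liver KO libraries and 7.56, 7.7 and 13.3 CPM in liver controls. Ptprc encodes CD45, the antigen that the sort was set to leave out, and it rose in heart by 2.17 on the log2 scale (adjusted p = 0.038). Its difference of 2.51 was not called (adjusted p = 0.081), but was with the block (adjusted p = 0.0052). Spi1, the ETS factor of myeloid cells, had 4.44 (heart 3.72, liver -0.72, adjusted p of the difference 0.012), lost without heart control 1 (adjusted p = 0.074). In bulk libraries fewer cells of a type and less RNA per cell cannot be told apart.

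Markers of other cells moved in liver too. Of 29 hepatocyte markers 5 fell in liver, with a summed level of 933 to 1477 CPM in liver KO libraries, against 1143 to 3980.4 CPM in liver controls. In heart 1 rose, with 79.3 to 80.5 CPM in heart KO libraries, where 8 were at 0, against 7.87 to 47.5 CPM in heart controls, where 11 were at 0. Of 17 erythrocyte and platelet markers 3 rose in heart and 4 in liver, with a median change of -0.29 in heart and 0.88 in liver. This list summed to 448 to 522 CPM in heart KO libraries and 101 to 195 CPM in heart controls, against 1069 to 1841 CPM in liver KO libraries and 164 to 219 CPM in liver controls. Lymphatic markers include Lyve1 and Flt4, which are also on the liver sinusoidal list. Of 10 lymphatic markers 2 fell and 1 rose in liver, with 1715 to 2780.5 CPM in liver KO libraries, against 4485 to 5397 CPM in liver controls. In heart 1 rose, with 451 to 539 CPM in KO libraries, against 389.9 to 416 CPM in controls. Of 20 cardiomyocyte markers 5 fell and 1 rose in heart, with 563 to 631 CPM in heart KO libraries, against 493 to 643 CPM in heart controls, and 2 rose in liver. The part of these cells in the differences was not tested.

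**Figure D4:**
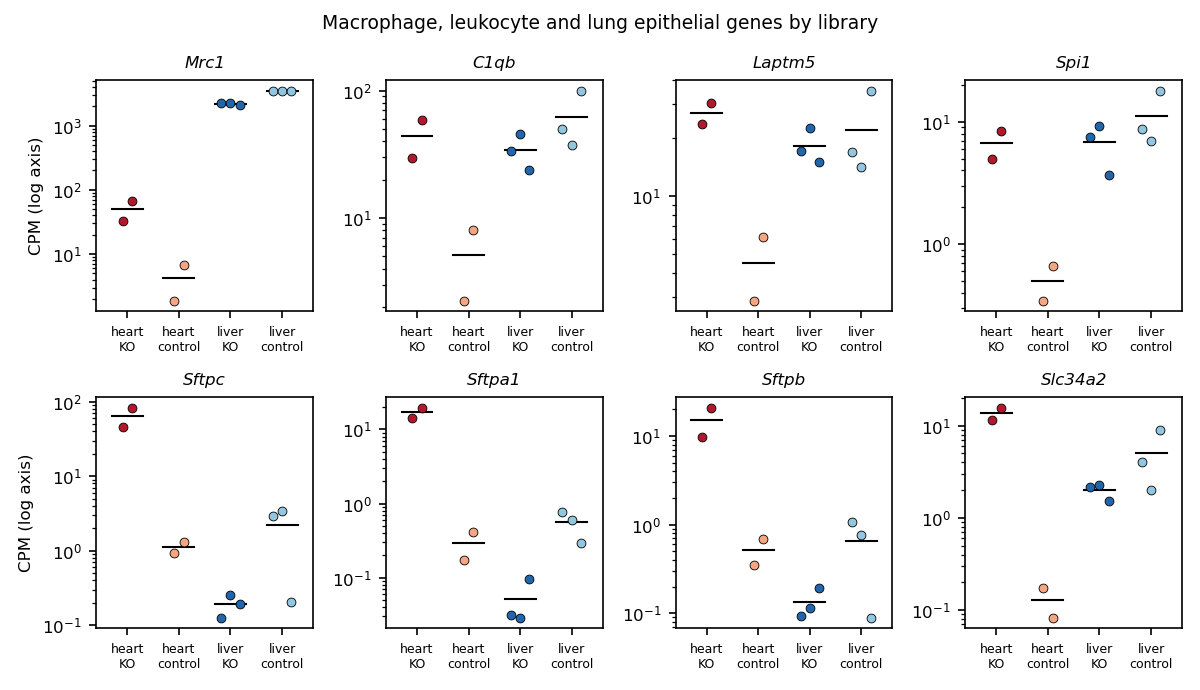
Levels in CPM on log axes of 4 macrophage or leukocyte genes (top) and 4 lung epithelial genes (bottom) in each library, with lines at group means. All 8 genes were higher in both heart KO libraries than in both heart controls.

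A response was called shared where a gene changed at least 2-fold in the same direction in both tissues and the 95% interval of the difference lay within 1 log2 unit of 0. This held for 96 genes, 33 up and 63 down. The block within genotype gave 194, again from changes set at number 1, so the counts are not of the same measure. Gipc3 had 12.8 and 20.3 CPM in heart KO libraries and 123 and 126 CPM in heart controls, against 11.3, 6.84 and 8.22 CPM in liver KO libraries and 71.1, 69.5 and 69.9 CPM in liver controls. For Gipc3 the log2 change was -2.91 ± 0.24 in heart (adjusted p = 0.00038) and -3.0 ± 0.20 in liver (adjusted p = 5.6e-05), a difference of 0.09 (95% interval -0.63 to 0.80, adjusted p = 0.91). Sh2d3c had 72.9 and 63.4 CPM in heart KO libraries and 386 and 397 CPM in heart controls, against 107, 68.4 and 88.6 CPM in liver KO libraries and 358, 446 and 385 CPM in liver controls. For Sh2d3c the log2 change was -2.52 ± 0.20 in heart (adjusted p = 0.00029) and -2.17 ± 0.16 in liver (adjusted p = 9.4e-05), a difference of -0.35 (95% interval -0.94 to 0.23, adjusted p = 0.46). Gipc3 is a PDZ domain protein and Sh2d3c an adaptor of integrin and Eph signalling, and each fell in all 5 KO libraries below all controls. Of the others that fell most, H2-Q7, a class I molecule with close paralogs, had 0.41 (heart -2.08, liver -2.49, adjusted p of the difference 0.34), and Tcim had -0.51 (heart -2.44, liver -1.93, adjusted p of the difference 0.11).

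Hhex had 206 and 169 CPM in heart KO libraries and 33.3 and 50.8 CPM in heart controls, against 287, 215 and 277 CPM in liver KO libraries and 57.6, 64.6 and 72.4 CPM in liver controls. For Hhex the log2 change was 2.15 ± 0.22 in heart (adjusted p = 0.00072) and 2.0 ± 0.18 in liver (adjusted p = 0.00021), a difference of 0.15 (95% interval -0.49 to 0.80, adjusted p = 0.8). Hhex, a homeobox factor of early endothelium and liver, rose in both. Dlg4 had 33.6 and 29.4 CPM in heart KO libraries and 8.68 and 6.8 CPM in heart controls, against 33.1, 38.6 and 47.9 CPM in liver KO libraries and 9.16, 8.9 and 7.79 CPM in liver controls. For Dlg4 the log2 change was 2.03 ± 0.20 in heart (adjusted p = 0.00062) and 2.21 ± 0.16 in liver (adjusted p = 8.7e-05), a difference of -0.18 (95% interval -0.77 to 0.40, adjusted p = 0.72). Dlg4 encodes the synaptic scaffold PSD-95. The secreted protein C1qtnf6 had 0.49 (heart 2.17, liver 1.67, adjusted p of the difference 0.23), and Obsl1, an obscurin-like cytoskeletal protein, had -0.01 (heart 1.90, liver 1.90, adjusted p of the difference 1). Their KO and control libraries did not overlap in either tissue.

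**Figure D5:**
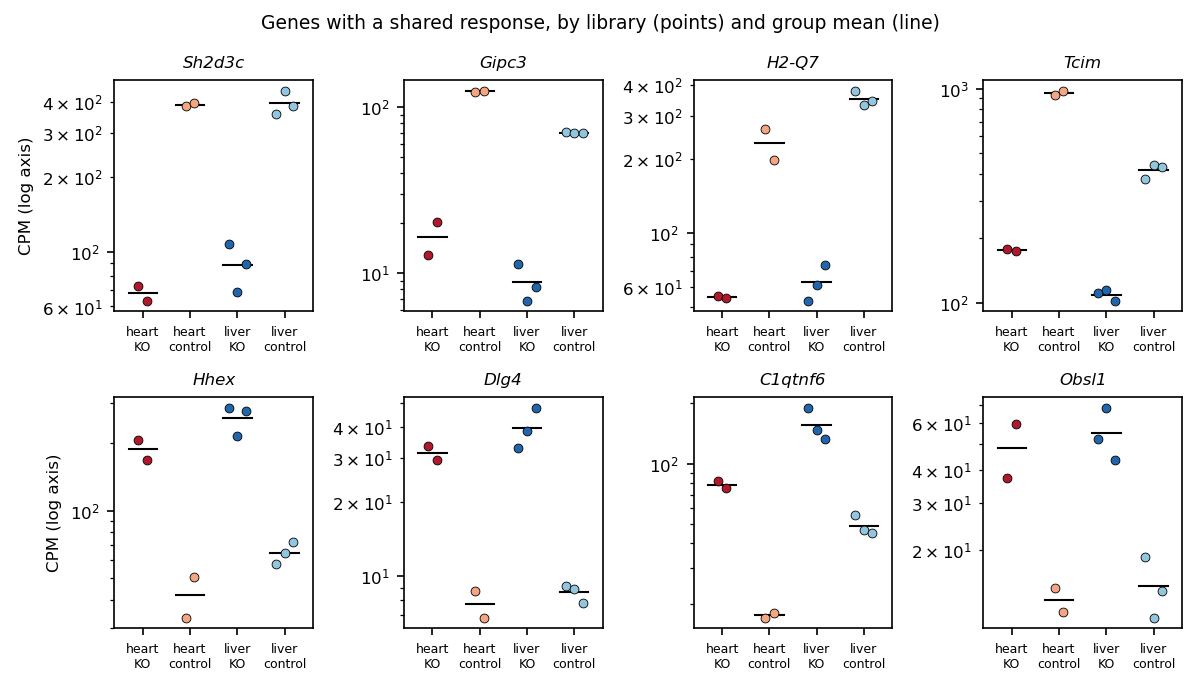
Levels in CPM on log axes of the 4 genes that fell and the 4 that rose most among the 96 shared responses, with each point a library and each line the group mean. In each panel KO and control libraries are apart in heart and in liver.

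Genes of class I antigen presentation and of the interferon response fell in both tissues. Of 20 class I genes 13 fell in heart and 17 in liver, and none was called in the difference by edgeR (4 positive at an unadjusted p under 0.05, 4 by DESeq2, 1 with the block). The median change was -1.01 in heart and -1.22 in liver. Of 10 class II genes 1 fell in heart and 6 in liver, with a median change of -0.15 in heart and -1.78 in liver. None of these was called in the difference by edgeR (5 positive at an unadjusted p under 0.05, 4 by DESeq2, 4 with the block). Of 37 interferon response genes 17 fell in heart and 21 in liver, and 2 differed, both guanylate-binding proteins. Gbp9 had -1.33 (heart -1.48, liver -0.15, adjusted p of the difference 0.0045) and Gbp4 -1.32 (heart -2.01, liver -0.69, adjusted p of the difference 0.0058), and close paralogs of the family make their counts uncertain. With the block 2 were positive and 6 negative. Genes of the respiratory chain had no called difference among 32 by edgeR, 0 at an unadjusted p under 0.05 and 0 by DESeq2, with a median of 0.19.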

How the data were processed

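The authors deposited raw read counts per gene (52636 genes, 99.6% with a symbol). STAR 2.7.6a was the aligner, FastQC 0.11.5 the read check and GRCm38 the genome, per the submitters' processing notes. How reads were counted, and on which strand, is not stated in the sources used here, and per the labels libraries came from an unstranded or a stranded TruSeq kit. Genes that overlap on opposite strands, and close paralogs, are therefore uncertain. Gene positions are of GENCODE M21 (GRCm38).

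The 10 libraries entered 1 edgeR 4.0.16 quasi-likelihood fit (R 4.3.3) with a mean per group, after filterByExpr (minimum count 10, total 15; 18386 genes kept) and TMM scaling (factors 0.935 to 1.07). DESeq2 1.42.0, other scalings, filters, blocks and left-out libraries were alternatives. Same-numbered heart and liver libraries of a genotype deviated together over 9395 genes (correlations 0.268, 0.300, 0.181 and 0.276; with 2 libraries in a heart group, deviations mirror each other), so the number was taken to pair the tissues within genotype. Across genotypes same-numbered libraries correlated at -0.047, 0.475 and 0.203 in liver, 0.203 in heart, 0.228 and 0.201 between heart KO and liver control, and 0.078 and 0.072 between heart control and liver KO, and numbers were not taken as pairs there. No label says what a number marks, an animal and a batch cannot be told apart, and heart control 3 carries the number 2 in its title.

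Named genes were Erg, Fli1 and Kcnj1, then those with the largest differences (10 each way measured in both tissues, 5 each way near zero in 1), 6 opposite and 8 shared responses, and up to 4 members per list by smallest p. Predicted, Y-linked and other-cell genes were left out of the size rules. Others, such as Oit3, Maf, Ntn4, Gata4, Msr1, Gpihbp1, Stab1, Stab2, Apold1 and Ptprc, were chosen after their values were seen where no list named them. Members and lists were chosen with earlier results of these data known. With members that had no count in a group set at a bound of 3 counts, list medians of the difference moved by 0.0303 at most for the endothelial lists.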

Additional observations from a re-analysis of the deposited data

Results flagged for a closer look

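The difference between the knockout effects of heart and liver was tested as an interaction, and it was called for 1308 genes. Within this set, 6 genes with opposite calls in heart and liver were singled out by the size of both changes. Their differences on the log2 scale were 9.32 for Sftpc, 8.91 for Ccn4, 9.19 for Sftpa1, 5.32 for Cd84 and 4.59 for Kit, which rose in heart and fell in liver, and -7.13 for Vwa3a, which fell in heart and rose in liver. All 6 kept their call when any 1 library was left out. Sftpc and Sftpa1 rose in heart beside the other lung epithelial genes, and the part of these cells was not tested. In liver Sftpa1 was near zero, and KO and control libraries of Sftpc overlapped. Groups had 2 or 3 libraries, so no single library was tested as an outlier.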

How the results depend on the processing

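Leaving out each library in turn gave 448 to 1622 genes with a called difference, or 413 to 1436 measured in both tissues. The same settings gave 1209 to 4012 genes called in heart, 2078 to 3284 in liver, 64 to 181 opposite and 58 to 115 shared. In each, the lowest count came without a heart control, save for the liver count. DESeq2 called 2531 differences (2220 measured in both tissues) and 258 opposite genes. Without the libraries numbered 2, which leaves 1 heart KO library assumed to vary like the others, there were 167 differences (161 measured in both), 1407 genes in heart, 1449 in liver and 33 opposite. Tested against a minimum change of 2-fold, there were 225 differences (193 measured in both), 458 genes in heart and 526 in liver.

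With the library number as a replicate block over all libraries, 1281 genes were called. By that block 4 venous, 5 coagulation, 5 TGF-beta and BMP, 5 guidance and 0 tip cell and angiogenic genes were positive. Sinusoidal genes had 11 positive members, and cardiac capillary genes 4 negative ones. With the replicate block within genotype 1998 genes were called (1830 measured in both tissues). Changes within a tissue compare KO and control at number 1 in that fit. Its 2039 genes in liver, 116 opposite and 194 shared are therefore not counts over replicates. In that fit liver KO 3 and liver control 2 add nothing to the estimated changes. Of 120 named genes with a called difference, 113 kept it with that block, 120 by DESeq2, 53 whichever 1 library was left out and 35 without the libraries numbered 2.

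Of those 120 genes, only Car3 turned its sign, to -0.69 without the libraries numbered 2 and -1.06 without heart KO 2, where its remaining heart KO library held no count; without other single libraries it reached 9.59. The median difference over all genes lay between -0.07 and 0.02 in all settings. Of 663 list medians under the alternatives, 62 changed sign. Without 1 library, the positive members ran from 1 to 3 for general endothelial genes (negative 1 to 5), 0 to 3 for arterial, 3 to 5 for venous, 2 to 6 for Wnt, 1 to 5 for mesenchymal, 0 to 6 for glycolysis and hypoxia, 2 to 6 for guidance, 1 to 4 for TGF-beta and BMP, 0 to 3 for Notch and 0 to 3 for p53 genes (negative 0 to 4). Negative tip cell and angiogenic genes ran from 1 to 5. Depth limits the genes near zero, and the intervals given for ratios of counts cover counting error only.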
